A study of Mus musculus with 19 samples.

Results

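The Hox genes of the mouse were followed in aorta, by cluster (HoxA to HoxD) and by paralogue number, the position of a gene within its cluster. Members were taken by name alone, as Hoxa, Hoxb, Hoxc or Hoxd followed by a number. Of the 39 such symbols, 38 matched an identifier in the tables, which list 37668 genes; Hoxd4 was not analysed here. The 38 comprised 11 HoxA, 10 HoxB, 9 HoxC and 8 HoxD genes. The tissue came from male C57BL/6 mice that were either wild type or Fbn1 hypomorphs, a model of Marfan syndrome whose mgR allele yields too little fibrillin-1, the protein of the microfibrils around elastic fibres. By the labels, each genotype had 3 libraries at 16 days and 4 at 30 days, and at 60 days wild type had 2 and the hypomorph 3. Animals carried no other allele or treatment, going by the labels, and the segment of aorta taken is not given in the sources used here. Expression is in FPKM (fragments scaled to transcript length and library size), and each gene has 1 pooled value for each of the 6 groups, so no value carries an SD or an n.

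Hox genes encode homeodomain transcription factors that record where along the head-to-tail axis a cell arose. Genes of low number lie at one end of a cluster and are first used in the head and neck, those of high number at the other end in the tail and limbs, and many adult mesenchymal and vascular cells keep part of this code. Hox proteins bind DNA together with Pbx and Meis partners, Polycomb proteins hold unused clusters silent, and retinoic acid turns on the low-numbered genes. Along the aorta, smooth muscle of the arch comes largely from neural crest and that of the descending part from trunk mesoderm, so the set of Hox genes in a sample differs with the segment.

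The following RefSeq promoter windows, on build GRCm38.p6, run from 250 bases before to 50 bases after the gene start, 5′ to 3′ on the gene's strand. Hoxb8, Hoxa9, Hoxa7 and Hoxa5 are shown because their 60-day values were at least 1.5-fold lower in the hypomorph, Hoxd8 because its value was higher, and Hoxa13 as a member with next to no RNA. Capitals mark matches, on either strand, to TGATNNAT, the composite Hox-Pbx site, and to TTTATNG, a site of posterior Hox and caudal factors. The Hoxb8 window is chr11:96281655-96281954 on the plus strand.
Hoxb8: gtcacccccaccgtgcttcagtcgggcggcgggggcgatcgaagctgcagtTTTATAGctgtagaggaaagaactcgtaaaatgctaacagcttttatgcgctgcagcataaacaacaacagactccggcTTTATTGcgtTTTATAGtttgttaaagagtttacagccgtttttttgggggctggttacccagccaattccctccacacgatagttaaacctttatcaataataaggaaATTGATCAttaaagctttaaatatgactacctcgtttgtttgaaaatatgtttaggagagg
The Hoxa9 window is chr6:52227321-52227620 on the minus strand.
Hoxa9: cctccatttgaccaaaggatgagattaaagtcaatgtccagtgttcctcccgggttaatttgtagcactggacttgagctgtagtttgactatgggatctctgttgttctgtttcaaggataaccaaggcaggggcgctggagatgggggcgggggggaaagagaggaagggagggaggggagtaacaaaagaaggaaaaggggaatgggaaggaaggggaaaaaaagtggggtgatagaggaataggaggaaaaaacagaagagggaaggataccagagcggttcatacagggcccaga
The Hoxa7 window is chr6:52218524-52218823 on the minus strand.
Hoxa7: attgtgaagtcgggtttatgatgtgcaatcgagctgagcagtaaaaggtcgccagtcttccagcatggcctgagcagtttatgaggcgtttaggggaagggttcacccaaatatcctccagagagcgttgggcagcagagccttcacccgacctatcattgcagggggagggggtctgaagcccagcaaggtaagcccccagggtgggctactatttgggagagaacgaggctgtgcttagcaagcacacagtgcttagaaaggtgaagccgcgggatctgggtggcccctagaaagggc
The Hoxa5 window is chr6:52204538-52204837 on the minus strand.
Hoxa5: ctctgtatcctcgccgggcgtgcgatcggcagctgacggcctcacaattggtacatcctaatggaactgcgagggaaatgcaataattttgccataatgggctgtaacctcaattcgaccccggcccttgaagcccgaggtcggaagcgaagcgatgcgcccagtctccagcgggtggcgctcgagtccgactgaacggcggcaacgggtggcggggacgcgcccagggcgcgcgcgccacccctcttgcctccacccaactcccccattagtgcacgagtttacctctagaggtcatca
The Hoxd8 window is chr2:74704365-74704664 on the plus strand.
Hoxd8: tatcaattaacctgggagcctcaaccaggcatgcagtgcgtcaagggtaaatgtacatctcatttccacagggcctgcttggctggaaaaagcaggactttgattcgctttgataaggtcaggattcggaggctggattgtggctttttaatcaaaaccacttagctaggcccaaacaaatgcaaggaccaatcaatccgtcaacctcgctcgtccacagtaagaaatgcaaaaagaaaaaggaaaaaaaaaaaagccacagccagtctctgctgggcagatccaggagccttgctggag
The Hoxa13 window is chr6:52260831-52261130 on the minus strand.
Hoxa13: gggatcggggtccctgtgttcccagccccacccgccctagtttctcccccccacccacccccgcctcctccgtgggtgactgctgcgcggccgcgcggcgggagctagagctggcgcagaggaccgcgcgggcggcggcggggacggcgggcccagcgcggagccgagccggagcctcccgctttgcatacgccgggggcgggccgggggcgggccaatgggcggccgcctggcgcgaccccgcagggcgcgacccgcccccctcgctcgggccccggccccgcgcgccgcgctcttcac

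Among these windows, Hoxb8 alone held matches to the motifs in capitals: 1 of TGATNNAT and 3 of TTTATNG, which do not overlap each other. RefSeq gave 24 windows for 22 Hox symbols. TGATNNAT occurred in 4 of the 24 (Hoxa2, Hoxb1, Hoxb8 and Hoxd11), and in 8.85% of all 32851 promoters of the same length. TTTATNG occurred in 2 of the 24 (Hoxb8 and Hoxd4), against 10.9% of all promoters. The CCAAT box, 5 letters that many promoters carry, was in 15 of the 24 and in 37.4% of all. The windows ranged widely in base composition: GC content was 42.3% for Hoxb8, 46.7% for Hoxd8, 49.7% for Hoxa9, 55.7% for Hoxa7, 61.7% for Hoxa5 and 81.0% for Hoxa13. The median ratio of observed to expected CpG was 0.626 over the Hox windows and 0.384 over all promoters. By level, it was 0.787 over 11 windows of members below 1 FPKM in every group and 0.594 over 12 windows of members that reached 1 FPKM. A match is a description of the letters and shows no binding, and starts other than the RefSeq one were not searched.

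As a check of the labels, Fbn1, the gene the allele targets, stood at 146, 134 and 52.7 FPKM in wild type at 16, 30 and 60 days and at 41.4, 40.9 and 24.6 FPKM in the hypomorph. Smooth muscle markers were abundant in all groups (Tagln between 2715 and 3916 FPKM, Myh11 between 563 and 854), the main cell type of the arterial wall. Acta2 was listed at 0 in both genotypes at 30 days and at 4140 FPKM or more elsewhere, so a listed 0 can be a failed estimate, and no ratio was formed against a 0. Each age came in its own table, normalised separately, so genotypes were compared within an age. Sequencing depth is unknown. A status column reads FAIL, the software's mark for a failed test calculation, in at least 1 row of the compared groups for 50.01% of compared genes at 30 days and 45.2% at 60 days; the FPKM are listed all the same.

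Hox RNA in the aorta came mostly from the HoxA and HoxB clusters, and members above paralogue 10 were at or near 0. Of the 38 members, 20 reached 1 FPKM in at least 1 group and 14 did so in all 6 groups. The HoxA genes made up 60.8%, 60.6% and 59.9% of the summed Hox FPKM in wild type at 16, 30 and 60 days and 61.2%, 63.7% and 64.1% in the hypomorph. HoxB genes made up 32.2%, 31.9% and 31.5% in wild type and 30.0%, 28.3% and 27.1% in the hypomorph, so these clusters together held most of the signal in every group. The HoxA share rests on Hoxa3: without that gene HoxA made up 45.0%, 46.9% and 47.9% in wild type and 43.9%, 46.6% and 48.1% in the hypomorph, and HoxB 45.2%, 42.9% and 41.0% in wild type and 43.4%, 41.6% and 39.1% in the hypomorph. HoxC contributed between 3.92% and 6.08%, and HoxD between 2.42% and 4.07%. The 9 genes of paralogues 11 to 13, which pattern the distal limb, genital tubercle and tail, reached at most 0.0858 FPKM, for Hoxa13 in the hypomorph at 60 days.

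**Figure D1:**
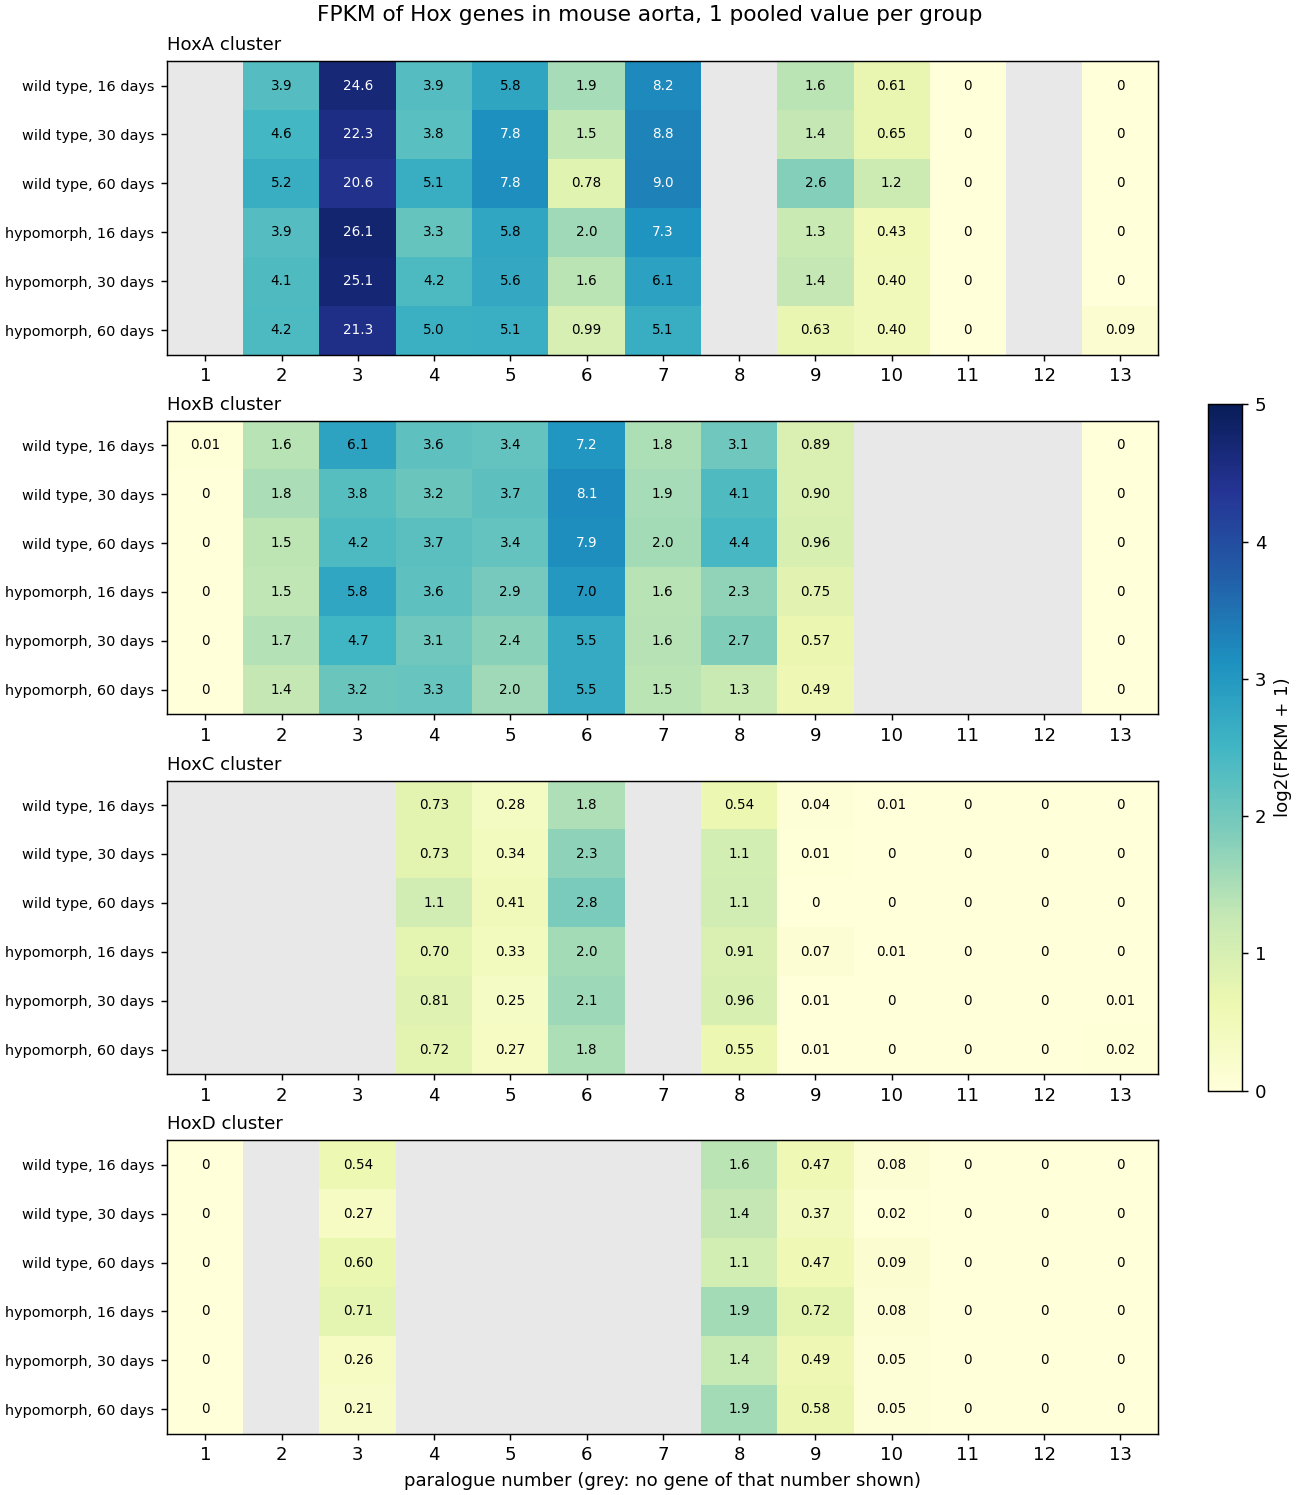
FPKM of Hox genes (number in the cell, colour as log2(FPKM + 1)), by cluster (panels), paralogue number (horizontal axis) and group (rows); each cell is 1 pooled value without an error. Hoxa3 is the darkest column at 20.6 to 26.1 FPKM, and the columns from 11 to 13 are at or near 0 in all groups.

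Hoxa3, a gene of pharyngeal derivatives such as thymus, parathyroid and the carotid artery, had the highest level in all 6 groups: 24.6, 22.3 and 20.6 FPKM in wild type and 26.1, 25.1 and 21.3 FPKM in the hypomorph. Its gene model on GRCm38 spans Hoxa4, Hoxa5 and Hoxa6 on the same strand, and the deposited mm9 locus chr6:52112349-52171853 is shared by Hoxa2 to Hoxa7, so fragments of these genes could be split among them in ways the tables do not show. Below Hoxa3, the order in wild type at 60 days was Hoxa7, Hoxb6, Hoxa5 and Hoxa2, at 8.98, 7.90, 7.85 and 5.21 FPKM. In the hypomorph of that age, Hoxb6, Hoxa7, Hoxa5 and Hoxa4 followed at 5.46, 5.14, 5.06 and 5.02 FPKM. Without values per library, neighbours this close in level cannot be ranked beyond their error. Over all 38 members, the levels of the genotypes gave a Spearman rho of 0.99 at 16 days, 0.99 at 30 days and 0.95 at 60 days. These are correlations across genes of 1 pool with another, given as a description. The 14 members at 0.1 FPKM or less in every group rank last in both pools, which by itself raises rho.

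Of the anterior members, paralogues 1 to 3, Hoxa2, Hoxa3, Hoxb2 and Hoxb3 differed by less than 1.5-fold at each age. Hoxa2, the selector gene of the second pharyngeal arch, stood at 3.91, 4.57 and 5.21 FPKM in wild type at 16, 30 and 60 days and at 3.91, 4.11 and 4.19 FPKM in the hypomorph. Hoxb2, a hindbrain gene, gave 1.60, 1.82 and 1.52 FPKM in wild type and 1.499, 1.67 and 1.43 FPKM in the hypomorph. The pools thus lay within 10% of each other for Hoxb2 at every age. Hoxb3, whose paralogues pattern the hindbrain and pharynx, stood at 6.07, 3.83 and 4.20 FPKM in wild type and at 5.78, 4.67 and 3.24 FPKM in the hypomorph, higher than wild type at 30 days and lower at 60 days. Hoxa3 was 1.03 times wild type at 60 days as deposited, and the scaling described with the 60-day comparison turns that direction. Hoxd3, below 1 FPKM in every group, stood at 0.536, 0.270 and 0.602 FPKM in wild type. In the hypomorph it stood at 0.712, 0.263 and 0.209 FPKM, higher than wild type at 16 days and lower at 60 days.

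The middle members, paralogues 4 to 8, are the genes of neck and thorax. Hoxa4 stood at 3.94, 3.77 and 5.14 FPKM in wild type at 16, 30 and 60 days and at 3.33, 4.21 and 5.02 FPKM in the hypomorph. Hoxb4, known for expanding blood stem cells, stood at 3.58, 3.23 and 3.70 FPKM in wild type and at 3.56, 3.05 and 3.29 FPKM in the hypomorph. Hoxc4 gave 0.730, 0.725 and 1.11 FPKM in wild type and 0.7001, 0.807 and 0.723 FPKM in the hypomorph. Of paralogue 4, then, Hoxa4 and Hoxb4 differed by less than 1.5-fold at each age, while Hoxc4 at 60 days was lower in the hypomorph with a mean under 1 FPKM.

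Paralogue 5 stood lower in the hypomorph pool at 30 and 60 days, where Hoxa5 and Hoxb5 carried a FAIL status. Hoxa5, which patterns lung and the cervicothoracic skeleton, stood at 5.84, 7.82 and 7.85 FPKM in wild type and at 5.77, 5.64 and 5.06 FPKM in the hypomorph. Hoxb5, an activator of the VEGF receptor gene Kdr in endothelial precursors, stood at 3.37, 3.66 and 3.40 FPKM in wild type and at 2.92, 2.44 and 2.00 FPKM in the hypomorph. The ratio of hypomorph to wild type was therefore 0.988, 0.721 and 0.645 for Hoxa5 and 0.866, 0.666 and 0.588 for Hoxb5 over the 3 ages, and 1.20, 0.739 and 0.656 for Hoxc5, whose levels were 0.251 to 0.410 FPKM.

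Paralogue 6 was uneven. Hoxa6 stood at 1.89, 1.47 and 0.783 FPKM in wild type and at 2.01, 1.56 and 0.995 FPKM in the hypomorph, slightly higher in the hypomorph at each age. Hoxb6, expressed in lateral plate mesoderm, stood at 7.24, 8.13 and 7.90 FPKM in wild type and at 6.96, 5.46 and 5.46 FPKM in the hypomorph. Hoxc6, a thoracic and mammary gene, stood at 1.76, 2.34 and 2.79 FPKM in wild type and at 1.95, 2.05 and 1.79 FPKM in the hypomorph. The Hoxc6 pools crossed with age, from a ratio of 1.11 at 16 days to 0.640 at 60 days, and its gene model lies within that of Hoxc5, with which it shares the deposited locus chr15:102797226-102847860 (mm9).

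Paralogues 7 and 8 held the largest differences among the well-expressed genes of neck and thorax. Hoxa7 stood at 8.21, 8.82 and 8.98 FPKM in wild type and at 7.28, 6.13 and 5.14 FPKM in the hypomorph, a ratio of 0.886, 0.695 and 0.573. Hoxb7, active in the ureteric bud and in angiogenic tumour cells, stood at 1.79, 1.91 and 1.95 FPKM in wild type and at 1.58, 1.65 and 1.55 FPKM in the hypomorph. Hoxb8, which keeps myeloid progenitors dividing and marks a lineage of microglia, stood at 3.07, 4.13 and 4.37 FPKM in wild type and at 2.30, 2.66 and 1.296 FPKM in the hypomorph. Its ratio was 0.750, 0.644 and 0.296, so wild type was 3.37-fold higher at 60 days; Hoxb7, listed in the same mm9 locus (chr11:96143218-96151650), had a ratio of 0.794 there. Hoxc8, a thoracic gene of motor neurons and fat, stood at 0.544, 1.07 and 1.099 FPKM in wild type and at 0.911, 0.961 and 0.554 FPKM in the hypomorph. Hoxd8 went the other way at 60 days, with 1.56, 1.43 and 1.07 FPKM in wild type and 1.93, 1.37 and 1.93 FPKM in the hypomorph, a ratio of 1.79 at the last age.

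The posterior members, paralogues 9 and 10, were low. Hoxa9, a regulator of blood stem cells and endothelium, stood at 1.57, 1.41 and 2.56 FPKM in wild type and at 1.31, 1.42 and 0.635 FPKM in the hypomorph. The pools were level at 30 days, and at 60 days wild type was 4.03-fold higher, the largest such ratio among the members compared at a mean of at least 1 FPKM. Hoxa10, needed in lumbar skeleton and uterus, stood at 0.614, 0.649 and 1.24 FPKM in wild type and at 0.433, 0.404 and 0.402 FPKM in the hypomorph, below the mean of 1 FPKM asked for. Hoxa9 and Hoxa10 lie in separate deposited loci (chr6:52173098-52181088 and chr6:52181195-52190853, mm9), apart from that of Hoxa2 to Hoxa7. Both stood higher in the wild-type pool of 60 days than in any other group, with ages normalised separately, and that pool is of 2 libraries by the labels.

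The 18 members below 1 FPKM in every group were Hoxb9, Hoxc5, Hoxd3 and Hoxd9, which exceeded 0.1 FPKM, and 14 genes at 0.1 FPKM or less. Among those 14, 8 were listed at 0 in all groups: Hoxa11, Hoxb13, Hoxc11, Hoxc12, Hoxd1, Hoxd11, Hoxd12 and Hoxd13. Hoxb9 stood at 0.894, 0.895 and 0.962 FPKM in wild type and at 0.751, 0.571 and 0.486 FPKM in the hypomorph. Within paralogue 9, then, Hoxa9 and Hoxb9 were lower in the hypomorph at 60 days, while Hoxd9 was at 0.578 FPKM against 0.466 in wild type.

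At 16 days, none of the Hox genes that the authors tested was called. There, 24 members had been tested in the authors' deposited table and 0 passed a q-value of 0.05, where 2.8% of the 12738 tested genes passed. At that share a list of 24 may well hold 0 called genes, so the count does not set Hox genes apart. It does not show that they were unchanged either. The lowest p among the members in the authors' deposited table was 0.224, for Hoxc8 (q-value 1.00), and 0 had a p below 0.05. The log2 differences in the authors' deposited table ran from -0.50 (Hoxa10) to 0.74 (Hoxc8), and the standard errors implied by the log2 difference and its statistic ran from 0.15 to 0.70 with a median of 0.45. Of the tested members, 14 were lower and 10 higher in the hypomorph pool. By size, 17 members passed the filter on level (a mean of 1 FPKM or more over both groups), of which 11 were lower by any amount, where 49.5% of all genes so compared were. None was 1.5-fold lower (0, against 5.34%) or higher (0, against 5.58%). Without the filter 3 of 27 were 1.5-fold higher, against 11.7% of all genes. Their median difference of log2(FPKM + 1), hypomorph minus wild type, was -0.05 and that of all 14028 genes 0.00. The other 14 members had no test.

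At 30 days most members compared stood lower in the hypomorph pool, though Hoxa4 and Hoxa6 stood higher, at 1.12 and 1.06 times wild type. Of 18 members compared, 13 were lower by any size, against 45% of all genes compared. At least 1.5-fold lower were 2 (Hoxb5 and Hoxb8), where 6.93% of all genes were, and 0 were 1.5-fold higher, where 11.1% were. Hoxb6, Hoxa7 and Hoxa5 came next, at 1.49, 1.44 and 1.39 times higher in wild type. The median difference of log2(FPKM + 1) was -0.10 over the members and 0.04 over all 13930 genes. Hoxb5 and Hoxb8 are among the 13 members with a FAIL status at this age, and over the 5 members without one the counts were 0 lower and 0 higher, against 8.41% and 11.3% of genes without that status. Without the filter on level 5 of 26 were lower and 1 higher, against 12.3% and 18.4%, and of 4 members with a mean of 5 FPKM or more 0 were lower, against 5.54%. No test could be made at this age or at 60 days, because neither table holds replicate values.

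At 60 days the difference was widest. Of 16 members compared, 13 were lower in the hypomorph pool by any size, where 37.4% of all genes were. At least 1.5-fold lower were 6 (Hoxa5, Hoxa7, Hoxa9, Hoxb5, Hoxb8 and Hoxc6), against 7.59% of all genes and 9.2% of those averaging 1 to 10 FPKM, the range of most members. At least 1.5-fold higher were 2, Hoxd8 among them, against 15.6% of all genes. The median difference of log2(FPKM + 1) was -0.28 over the members and 0.11 over all 13992 genes. In the 60-day table the ratios of all compared genes centred at 0.12 on the log2 scale, above 0. After division by that median ratio 7 members were 1.5-fold lower and 1 (Hoxd8) higher. Hoxa3 turned from just above to just below wild type. The share of all genes past 1.5-fold was not computed under that scaling. The unscaled shares therefore cannot be set beside these 2 counts. Of the 6 members lower before scaling, Hoxa5, Hoxa7 and Hoxb5 carried a FAIL status. Among the 6 compared members without one, 3 were 1.5-fold lower (Hoxa9, Hoxb8 and Hoxc6) and 1 higher. Of genes without that status, 8.74% and 17.1% were. Without the filter on level 13 of 25 were lower, against 12.8%. Of 5 members with a mean of 5 FPKM or more, 2 were lower and 0 higher, against 6.15% and 11.4%.

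**Figure D2:**
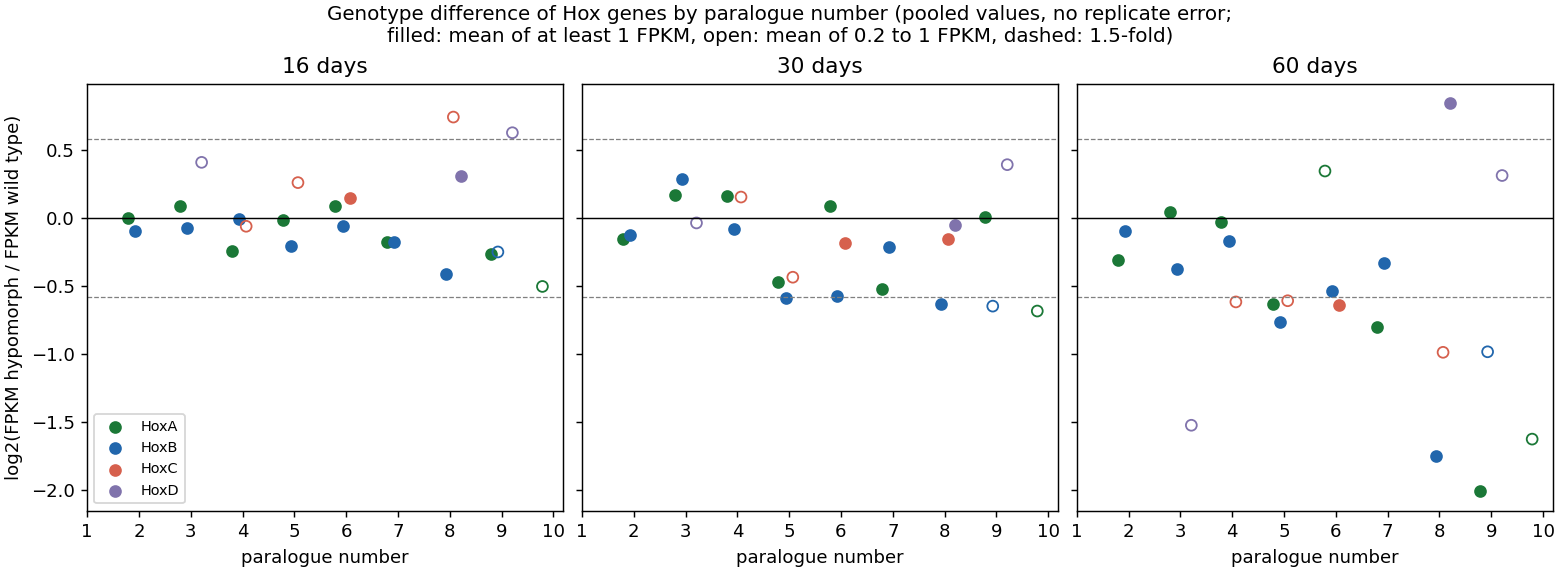
Log2 ratio of hypomorph to wild-type FPKM (vertical axis) for Hox genes that averaged 0.2 FPKM or more, by paralogue number (horizontal axis), cluster (colour) and age (panels); filled points have a mean of at least 1 FPKM and dashed lines mark 1.5-fold. At 60 days Hoxa9 at -2.01 and Hoxb8 at -1.75 lie lowest, while Hoxd8 at 0.84 lies highest.

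At 60 days the HoxA and HoxB genes of higher paralogue number tended to stand lower in the hypomorph pool. Over their 17 genes averaging 0.2 FPKM or more, the log2 ratio and the paralogue number had a Spearman rho of -0.70 at 16 days, -0.54 at 30 days and -0.78 at 60 days. With HoxC and HoxD included, 24 genes gave -0.22, -0.31 and -0.43. Within HoxA alone (9 genes) rho was -0.63, -0.40 and -0.77, and within HoxB alone (8 genes) -0.64, -0.83 and -0.76. These are correlations across neighbouring genes, some of which share a locus and antisense partners, within the same pair of pools, and they carry no test. At 60 days the median difference of log2(FPKM + 1) was -0.06 over 5 members of paralogues 1 to 3 and -0.45 over 10 members of paralogues 4 to 8; Hoxa9, the 1 compared member of higher number, stood at -1.12. At 16 days the medians were 0.00 and -0.05 and Hoxa9 was at -0.16. At 30 days they were -0.08 over 5 members and -0.13 over 12, which kept that order. Hoxa9, a single gene, was at 0.00 at that age and did not.

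Levels were also summed by position. Paralogues 1 to 3 summed to 38.3, 34.5 and 33.1 FPKM in wild type at 16, 30 and 60 days and to 39.6, 37.2 and 31.9 FPKM in the hypomorph. Paralogues 4 to 8 summed to 43.8, 48.8 and 50.6 FPKM in wild type and to 41.5, 38.3 and 35.1 FPKM in the hypomorph. Paralogues 9 to 13 summed to 3.67, 3.37 and 5.32 FPKM in wild type and to 3.37, 2.96 and 2.26 FPKM in the hypomorph. At 30 days the posterior sums lay closer together than the middle sums, and at 60 days they lay further apart relative to their size. Hoxa3 supplied most of the anterior sum, 20.6 of 33.1 FPKM in wild type and 21.3 of 31.9 in the hypomorph at 60 days. Without it paralogues 1 to 3 summed to 13.7, 12.2 and 12.5 FPKM in wild type and to 13.5, 12.1 and 10.5 FPKM in the hypomorph, a ratio of 0.984, 0.993 and 0.844. All members together gave 85.8, 86.7 and 89.0 FPKM in wild type and 84.5, 78.4 and 69.2 FPKM in the hypomorph, a ratio of 0.985, 0.905 and 0.777.

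**Figure D3:**
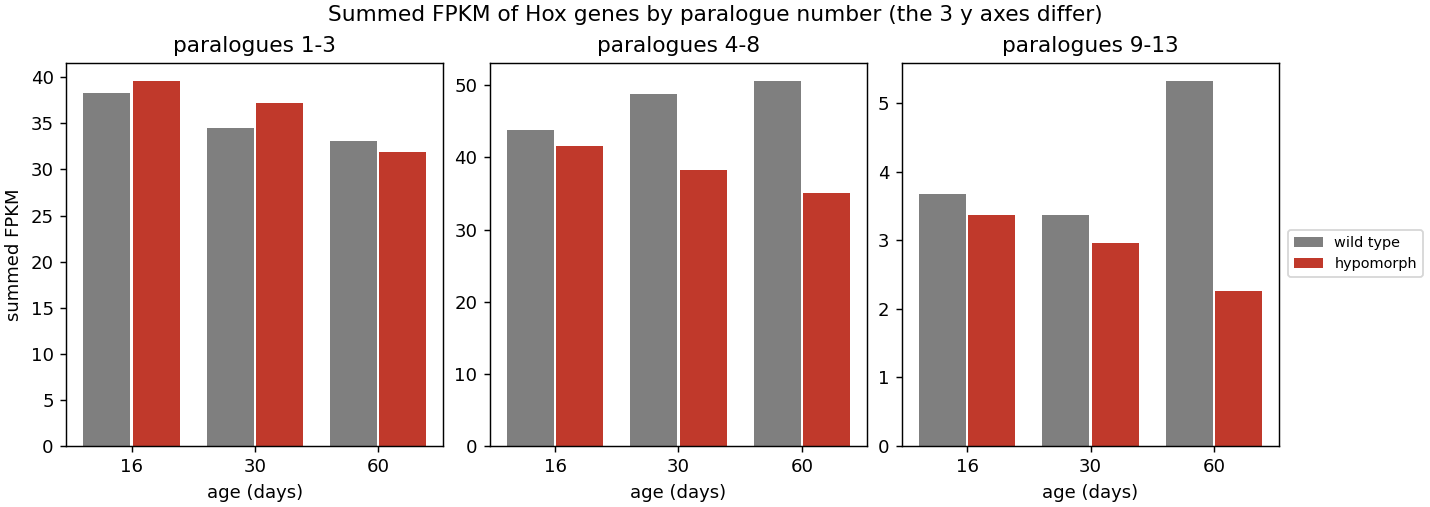
Summed FPKM of the Hox genes of paralogues 1-3, 4-8 and 9-13 (panels, each with its own vertical axis from 0) in wild type (grey) and hypomorph (red) by age in days; each bar is a sum of pooled values without an error. In paralogues 4-8 the wild-type bars are 43.8, 48.8 and 50.6 FPKM and the hypomorph bars 41.5, 38.3 and 35.1 FPKM.

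Side by side over the ages, 16 members could be compared at all 3. Lower in the hypomorph pool at all 3 ages were 8 (Hoxa5, Hoxa7, Hoxb2, Hoxb4, Hoxb5, Hoxb6, Hoxb7 and Hoxb8), where 22.3% of the 13373 genes compared at all ages were. The ratio to wild type was lower at each later age for 8 as well (Hoxa2, Hoxa5, Hoxa7, Hoxb4, Hoxb5, Hoxb7, Hoxb8 and Hoxc6), against 15.2% of genes. These members are neighbours on their chromosomes and were measured in the same pools, so they are not independent of one another, and the change with age was not tested.

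Non-coding RNAs of the clusters are transcribed between and across the Hox genes, and 13 members overlap an antisense gene on GRCm38. The libraries mark strand per the labels, but whether counting used strand is not given in the sources used here, so reads of a member and of its antisense partner may not be told apart. Hotairm1, of the HoxA cluster, stood at 25.4, 23.2 and 17.6 FPKM in wild type and at 16.6, 17.2 and 20.1 FPKM in the hypomorph. Its level was lower in the hypomorph pool at 16 and 30 days and higher at 60 days. Hoxb3os, which overlaps Hoxb2 and Hoxb3, stood at 18.5, 18.1 and 18.1 FPKM in wild type and at 16.7, 16.6 and 15.0 FPKM in the hypomorph. Hoxaas2, antisense within the Hoxa3 model, stood at 8.93, 10.1 and 11.4 FPKM in wild type and at 7.53, 6.62 and 8.22 FPKM in the hypomorph. Of these RNAs, 6 had been tested at 16 days in the authors' deposited table and 0 passed, where 2.8% of all tested genes did. Hotair and Hottip, RNAs of the silent ends of HoxC and HoxA, were listed at 0 in all groups.

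The DNA-binding partners of Hox proteins were also compared. Of the 9 Pbx, Meis and Pknox genes, 8 could be compared at 60 days and 0 were 1.5-fold lower or higher, against 7.59% and 15.6% of all genes; their median difference of log2(FPKM + 1) was -0.06 at each of the 3 ages. Meis2 stood at 23.2, 21.5 and 24.8 FPKM in wild type and at 21.2, 20.8 and 19.8 FPKM in the hypomorph, and Pbx2 between 18.8 and 22.6 FPKM in all groups. Meis1, named after its values were seen, lay just under that size at 60 days, at 18.5 FPKM in the wild-type pool and 12.4 in the other. Pknox2, likewise named, stood at 5.24 and 7.05 FPKM, with wild type 1.34-fold higher, and 1.36-fold higher at 30 days. At 16 days 5 partners had been tested in the authors' deposited table and 0 passed, where 2.8% of all tested genes did.

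Polycomb genes, whose products silence Hox clusters, had a median difference of -0.04, 0.24 and 0.13 on the log2(FPKM + 1) scale over 16 genes at 16, 30 and 60 days. At 60 days 3 of them were 1.5-fold higher in the hypomorph, named here after their values were seen: Ezh2, the methyltransferase for histone H3 lysine 27, at 5.07 against 2.76 FPKM, its partner Jarid2 at 8.05 against 4.97 FPKM, and Bmi1 at 17.0 against 9.91 FPKM. Of all genes, 15.6% were 1.5-fold higher at that age. The 3 most abundant members were Phc2 (51.7 against 44.7 FPKM at 60 days), Pcgf2 (13.9 against 20.0) and Ring1 (19.5 against 18.7). Trithorax and demethylase genes, which oppose Polycomb, gave medians of 0.10, 0.15 and 0.20 over 8 genes with 0 past 1.5-fold at any age. Their most abundant members, Men1, Kmt2b and Ash2l, stood at 22.0, 16.8 and 13.5 FPKM in the hypomorph and at 26.6, 14.5 and 13.6 FPKM in wild type at 60 days. At 16 days 0 of 10 tested Polycomb genes and 0 of 4 tested Trithorax and demethylase genes passed in the authors' deposited table. Of all tested genes 2.8% passed, and at that share lists this short may hold 0.

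Genes of retinoic acid supply and response gave medians of -0.03, 0.13 and 0.02 on the same scale. At 60 days 15 of 18 could be compared. Of these, 5 were 1.5-fold lower and 3 higher in the hypomorph pool, against 7.59% and 15.6% of all genes. Dhrs3, which returns retinal to retinol, stood at 52.3, 67.2 and 74.3 FPKM in wild type and at 63.8, 81.7 and 97.5 FPKM in the hypomorph. Rarg, a receptor, stood at 41.6, 36.1 and 47.3 FPKM in wild type and at 33.7, 38.9 and 30.9 FPKM in the hypomorph. Of the list, 10 had been tested at 16 days in the authors' deposited table and 0 passed, where 2.8% of all tested genes did. The caudal genes Cdx2 and Cdx4, activators of posterior Hox genes in the embryo, were listed at 0 in all groups.

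**Figure D4:**
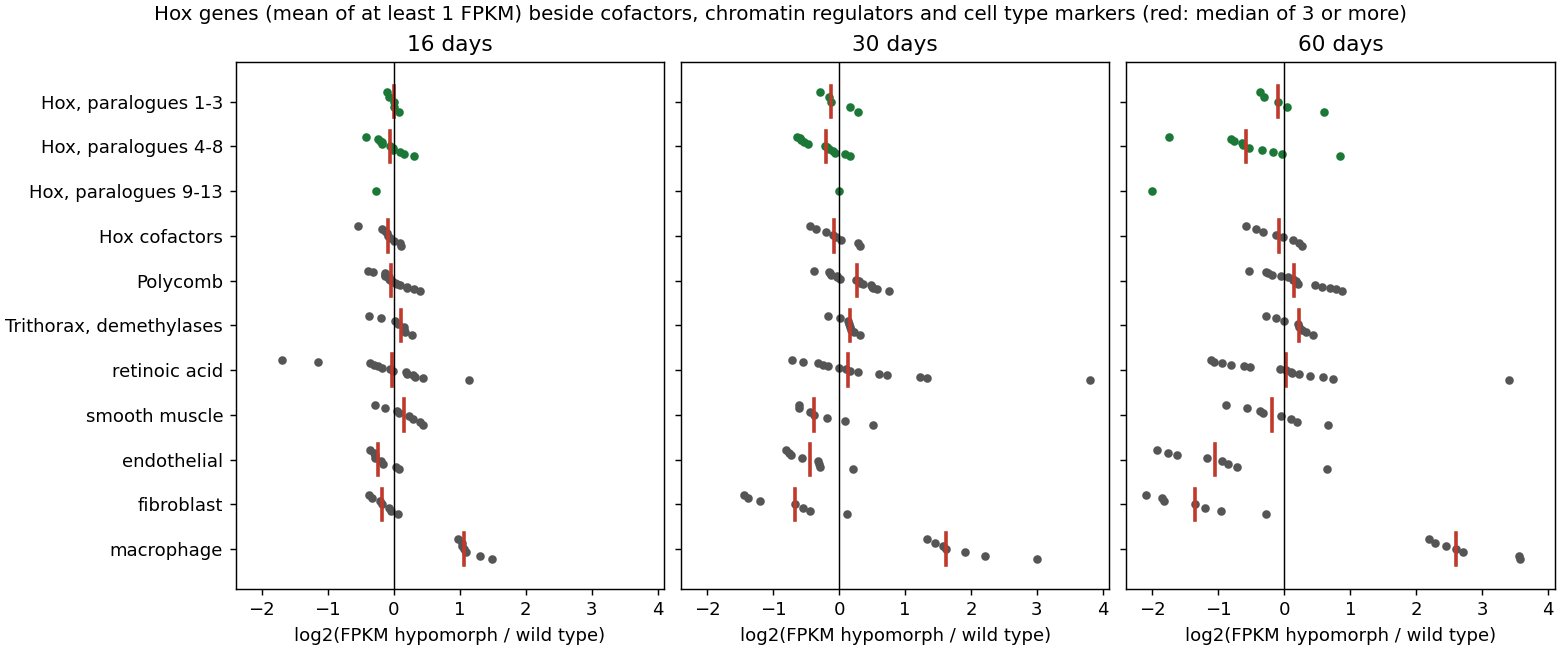
Log2 ratio of hypomorph to wild-type FPKM (horizontal axis, the same for all panels) for Hox genes by paralogue range (green), for Hox partners and regulators and for cell type markers (dark grey), by age; each point is a gene with a mean of at least 1 FPKM and red bars are medians of 3 or more genes. At 60 days the fibroblast markers and 7 of 8 endothelial markers lie left of 0, with list medians of -1.36 and -1.05. The macrophage markers lie right of it, with a median of 2.60.

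Markers of other cell types also differed between the pools. Fibroblast markers summed to 2538, 4587 and 8300.0 FPKM in wild type at 16, 30 and 60 days and to 2137, 2459 and 2643 FPKM in the hypomorph; 6 of 7 were 1.5-fold lower in the hypomorph at 60 days. Endothelial markers summed to 455, 529 and 700.2 FPKM in wild type and to 383, 348 and 290.5 FPKM in the hypomorph, and 7 of 8 were 1.5-fold lower at 60 days, against 7.59% of all genes; the eighth, Kdr, named after its values were seen, was higher, at 6.29 FPKM against 4.01 in the wild-type pool. Macrophage markers summed to 163, 274 and 261 FPKM in wild type and to 379, 888 and 1480.2 FPKM in the hypomorph. At each age 7 of 7 were at least 1.5-fold higher, against 5.58%, 11.1% and 15.6% of all genes at 16, 30 and 60 days. At 30 days 7 of 7 adipocyte markers compared were 1.5-fold lower (list sums 1511 FPKM in wild type and 645 in the hypomorph), as were 4 of 5 Schwann cell markers (45.5 and 12.1 FPKM), while 10 of 10 cardiomyocyte markers were higher (436 and 982 FPKM). Of all genes, 6.93% were lower and 11.1% higher by that size at 30 days. At 60 days 4 of 8 adipocyte and 3 of 10 cardiomyocyte markers were 1.5-fold higher, against 15.6% of all genes. At 60 days the fibroblast genes Gsn, Dcn and Dpt stood at 873, 777 and 317 FPKM in the hypomorph against 3738, 1993 and 730.1 in wild type. The endothelial genes Pecam1, Vwf and Egfl7 stood at 78.1, 68.5 and 75.4 FPKM against 266, 154 and 137. Among the macrophage genes, Itgam and Lyz2 passed at 16 days in the authors' deposited table (q-values 4.14e-08 and 0.00163). Smooth muscle markers had median differences of 0.15, -0.36 and -0.18 at the 3 ages. At 30 days, when the Hox median was -0.10, 2 of 7 compared were 1.5-fold lower and 0 higher: the wild-type pool held 854 FPKM of Myh11 and 469 of Cnn1, and the hypomorph pool 563 and 308. At 60 days 1 of 8 was lower (Des) and 1 higher (Myocd) by that size, against 7.59% and 15.6% of all genes. Myh11, Cnn1, Des and Myocd were named after their values were seen. None of the defining markers of these 4 cell types was at 0 in a group, apart from Acta2 at 30 days. Their part in the Hox result was not tested. In such bulk tissue, fewer cells of a type and less RNA per cell cannot be told apart.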

How the data were processed

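Polyadenylated RNA of mouse aorta was sequenced as strand-marking paired-end libraries, 19 in 6 groups, per the labels' protocols. The submitters' processing notes name Cufflinks 1.3.0, TopHat2 2.0.8, SAMtools 0.1.7, Bowtie2 2.1.0 and the build mm9. The authors deposited FPKM, 1 pooled value per gene and group, and for 16 days also a statistic, a log2 ratio, a p-value and a q-value per gene, per the file headers. The deposited log2 ratio is wild type over hypomorph; its sign was reversed. Wild-type values are listed 3 times at 30 and 60 days; the listings differ for 17 and 11 genes, none of them a Hox gene, and the largest was kept. A further 2 groups of rows match no labelled sample and were not used.

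Genes at 0 in a group or with a mean under 1 FPKM were not compared; differences are log2(FPKM + 1) or plain ratios, and the size used is 1.5-fold. The plan of tests per library could not be applied to pooled values, which is why 30 and 60 days have no test. The rule names every Hox gene of at least 1 FPKM in a group and, of the other lists described, genes called at 16 days or else the 3 of highest mean; some of these enter the counts and sums but are not reported here by name or plotted by position. The members and lists were chosen with earlier results of these data known. Alternatives were another pseudocount and none, other level filters, scaling by the median ratio, division by the summed FPKM, cluster medians, and, chosen after seeing the data, leaving out overlapping members, Hoxa3, or members of FAIL status. Symbols came from the gene table, gene models from GENCODE M21 (GRCm38), promoters from RefSeq (GRCm38.p6). Calculations used Python 3.11.15, numpy 2.4.6 and pandas 2.3.3 and were tested on simulated data.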

Additional observations from a re-analysis of the deposited data

How the results depend on the processing

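No paired analysis was possible because the tables pool the libraries of a group. Leaving out replicates was likewise not run, and the share of the spread due to animals is unknown. Without the filter on level, Hox genes at least 1.5-fold higher numbered 3 at 16 days and 1 at 30 days, and those lower 5 at 30 days and 13 at 60 days (of 27, 26 and 25 compared), where 12.3% and 12.8% of all genes were lower. With a mean of at least 5 FPKM, 4 and 5 members were left at 30 and 60 days: 0 and 2 were lower, 0 were higher at 60 days, and the medians were -0.44 and -0.46. Scaling by the median ratio left 1 higher at 60 days, with no share of all genes computed under that scaling. Leaving out members of FAIL status gave 0 lower at 30 days, and 3 lower and 1 higher at 60 days, from fewer genes. The summed ratio at 60 days was 0.843 relative to the summed FPKM of all genes, and without Hoxa3 it was 0.828 at 30 days and 0.7002 at 60 days; the cause was not tested. Of 60 single log2 ratios, 3 near 0 changed sign under scaling: Hoxa3 at 60 days from 0.05 to -0.08, Hoxa9 at 30 days from 0.00 to -0.04 and Hoxa2 at 16 days from 0.00 to -0.00. By cluster medians in place of sums, HoxA made up 42.9%, 39.3% and 48.5% in wild type and 49.4%, 42.8% and 49.3% in the hypomorph. Low FPKM carry few reads, and the depth is unknown.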

Other observations

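Genes next to the clusters gave values not described above. Skap2, a signalling adaptor beside HoxA, stood at 22.4, 23.8 and 20.4 FPKM in wild type at 16, 30 and 60 days and at 21.9, 31.2 and 36.7 FPKM in the hypomorph, so at 60 days it was 1.80 times wild type while Hoxa9 was at 0.248 times. Skap1, its T-cell relative beside HoxB, stood at 0.938, 0.378 and 0.290 FPKM in wild type and at 0.191, 0.264 and 1.01 FPKM in the hypomorph, with a q-value of 0.0151 at 16 days in the authors' deposited table. The 7 thymus and T-cell markers summed to 37.0, 6.40 and 3.51 FPKM in wild type and to 2.54, 3.20 and 16.4 FPKM in the hypomorph; their part in the Skap1 values was not tested. In the authors' deposited table at 16 days, 4 of 4 markers tested were called lower, against 2.8% of tested genes called either way. At 60 days 3 of 3 compared were 1.5-fold higher, against 15.6% of all genes. Mtx2, beside HoxD, stood between 10.6 and 12.4 FPKM in all groups.

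Other transcription factors of the outflow tract and pharyngeal arches had medians of -0.03, 0.17 and -0.27 on the log2(FPKM + 1) scale at the 3 ages. At 60 days 12 of 16 compared were lower in the hypomorph pool, where 37.4% of all genes were; 5 were at least 1.5-fold lower, against 7.59%, and 2 at least 1.5-fold higher, against 15.6%. The 3 most abundant were Prrx1, Gata6 and Foxc1. Gata6 stood at 37.1, 29.6 and 31.4 FPKM in wild type and at 33.3, 26.8 and 20.6 FPKM in the hypomorph. At 60 days the hypomorph and wild-type pools were at 35.1 and 44.1 FPKM for Prrx1 and at 22.1 and 24.4 FPKM for Foxc1. Of the list, 18 had been tested at 16 days in the authors' deposited table and 0 passed, where 2.8% of all tested genes did.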
